A study of Homo sapiens with 12 samples.

Results

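Regions that carried H3K27ac peaks in both clones lacking CREBBP and in neither control clone are described here. H3K27ac, acetylation of lysine 27 on histone H3, marks active promoters and enhancers. It was mapped by ChIP-seq in SUDHL4, an established line of diffuse large B-cell lymphoma (DLBCL). Peaks of the 6 deposited lists that shared at least 1 base were joined into 47344 merged regions on chromosomes 1 to 22, and a clone had a region if any of its peaks lay in it. The members were chosen by the presence of peaks: in both CREBBP knock-out clones, in neither control clone and in at most 1 EP300 knock-out clone. This left 493 of the 47344 regions (1.04%). Because these peaks chose the members, every value in the 6 clones below is a description, and no difference between the genotypes in these regions is a test of the choice.

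All 6 clones derive from single SUDHL4 cells that were edited with CRISPR/Cas9, grown from limiting dilution and kept as stable lines. The WT clones N4-8 and N5-8 were edited at a neutral site in PPP1R12C and are wild type for CREBBP and EP300. The CREBBP-KO clones CBP-E13-5 and CBP-E20-9 received guides against CREBBP exons 15 and 20, although the first clone's name carries another exon number than its protocol. The EP300-KO clones P300-E17-17 and P300-E24-5 received guides against EP300 exons 17 and 24. There were thus 2 clones per genotype, each with 1 immunoprecipitated library called against its own input, so p-values measure the spread between clones. An exact permutation test of 2 against 2 clones cannot go below p = 0.333, and none is given.

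CREBBP and EP300 are paralogous acetyltransferases that are brought to enhancers and promoters by transcription factors and acetylate H3K27 there. CREBBP is often mutated in germinal-centre lymphomas, where it is known for holding enhancers of B-cell signalling and antigen presentation in an acetylated state that BCL6 and its corepressors oppose.

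The lists held 35054 to 46940 peaks, and covered length on chromosomes 1 to 22 ran from 25.4 to 34.1 Mb. CBP-E20-9 had the most covered sequence of all clones (34.1 Mb) and CBP-E13-5 less than either WT clone (27.5 Mb, where N4-8 had 32.9 and N5-8 had 30.4). Sequencing depth per library is unknown. The cell type was checked on marker genes. All 7 B-cell markers and all 5 germinal-centre markers had covered sequence within 10 kb in every clone, for example 10.4 and 11.3 kb at MS4A1 in the CREBBP-KO clones and 10.3 and 10.6 kb at BCL6. The T-cell genes CD2 and CD28, the myeloid gene CSF1R and the liver, neural and muscle genes ALB, SOX2 and MYOD1 were at 0 in all 6 clones, whereas the T-cell gene CD3E had 4.39 to 7.38 kb and the myeloid genes CD14 and LYZ had 0.513 to 0.797 and 1.42 to 2.11 kb.

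The gained regions were short and low in score, as were the other classes of regions defined by absence in some clones. Every member had its peaks in the 2 CREBBP-KO clones overlapping by at least 1 base. In the 422 members without an EP300-KO peak this follows from the joining of peaks that share a base. In 463 of 493 members the overlap was at least 50% of the shorter clone's covered length. In CBP-E13-5 covered length per member ran from 99 to 1463 bases with a median of 169, and in CBP-E20-9 from 99 to 1827 with a median of 245. Over both clones the median was 200 bases, and regions present in all 6 clones had a median of 836. By the mirrored rules below, regions gained without EP300 had a median of 234 bases and regions lost without CREBBP 233.5, and regions in a single CREBBP-KO clone and no other had 155. CBP-E20-9 had the longer peak in 341 members, CBP-E13-5 in 149, and 3 were equal. In both clones 219 members had under 250 bases, and 12 had at least 500. Across members the covered lengths of the 2 clones went together loosely (Pearson's r = 0.49, Spearman's rho = 0.35, n = 493 regions, which share the same 2 libraries).

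**Figure D1:**
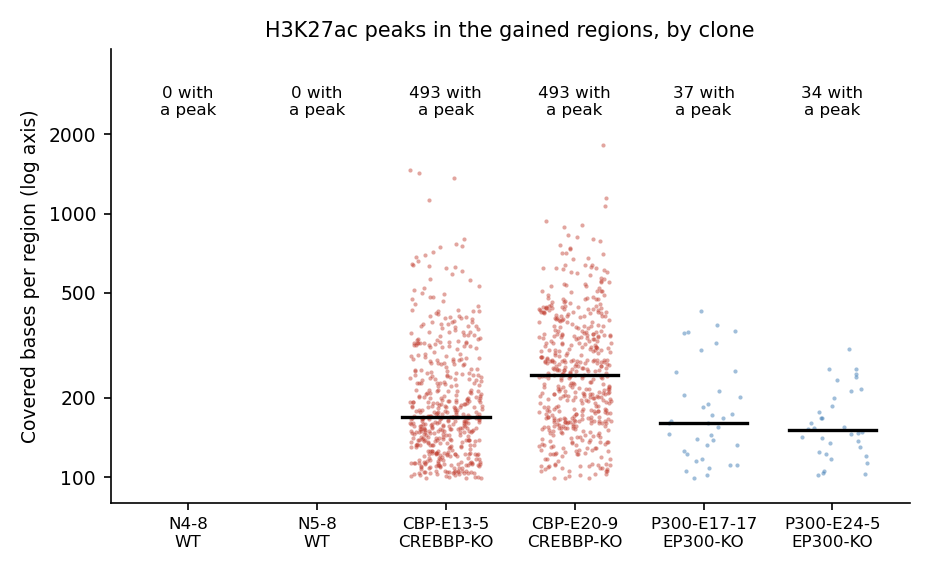
Covered bases (log axis) in each of the 493 gained regions, by clone, with a black line at the median of the regions that have a peak. The points of CBP-E20-9 (median 245) lie higher than those of CBP-E13-5 (median 169), the WT clones have no peak by the rule, and 37 and 34 members have a peak in an EP300-KO clone.

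The deposited score per peak is the authors' own value. Its meaning is not stated, and it was used only to rank peaks within a list. The median member stood at percentile 12.5 of the CBP-E13-5 list and at percentile 20.8 of the CBP-E20-9 list. Over both lists the members' median percentile was 15.6, against 22.2 for regions gained without EP300, 25.3 for regions lost without CREBBP and 10.4 for regions in a single CREBBP-KO clone, each in the clones that have them. No member reached the upper 50% of both lists, 18 reached it in 1 list, and 258 were in the lowest 25% of both. Whether the WT clones hold signal below the calling threshold at these places cannot be read from peak lists. With every list limited to its 33969 best-scoring peaks, 307 of the 493 members still had a peak in both CREBBP-KO clones.

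Most members had no peak in EP300-KO either: 422 of 493 (85.6%) had none, 37 had one in P300-E17-17 and 34 had one in P300-E24-5. Where present, the EP300-KO peaks were small, with medians of 160 bases (up to 427) and 150.5 bases (up to 306). Members with an EP300-KO peak had a median of 240 covered bases in CREBBP-KO and those without had 208.75. Just outside the rule, 94 regions had peaks in both CREBBP-KO clones, both EP300-KO clones and neither WT clone. Their median was 229.5 bases, taken like the members' 200 over the separate values of the 2 CREBBP-KO clones. Together, 587 of 47344 merged regions (1.24%) had peaks in both CREBBP-KO clones and no WT clone. By the mirrored rules, 740 regions were gained without EP300 (both EP300-KO clones, neither WT clone, at most 1 CREBBP-KO clone) and 504 were lost without CREBBP (both WT clones, neither CREBBP-KO clone, at least 1 EP300-KO clone).

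The gained regions lay beside acetylation that the control clones already had. The gap from a member to the nearest WT peak had a median of 449 bases and was at most 1000 bases in 329 of 493 members (66.7%). Another 104 members lay 1 to 10 kb from a WT peak, 50 lay 10 to 100 kb away and 10 lay farther. In 82 members a WT peak stood within 1000 bases on both sides, so that the CREBBP-KO peak sat in a gap of WT acetylation. Regions gained without EP300 lay farther out, with a median gap of 14.5 kb to a WT peak and 30.7% within 1000 bases, and 23.4% of them were over 100 kb from any WT peak, against 2.03% of the members. For regions lost without CREBBP the gap to the nearest CREBBP-KO peak had a median of 2.36 kb, with 42.9% within 1000 bases.

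Some other classes of regions were as close to WT acetylation as the members. Of 3212 regions seen in a single CREBBP-KO clone and in no other clone, 69.8% lay within 1000 bases of a WT peak (median gap 436 bases). Of the 21244 regions present in all 6 clones, 69.1% had another region with a WT peak within 1000 bases (median gap 253 bases). Of the 94 regions just outside the rule, with peaks in both EP300-KO clones too, 44.7% lay within 1000 bases of a WT peak. Members without an EP300-KO peak were within 1000 bases of a WT peak in 289 of 422 cases (68.5%) and those with 1 such peak in 40 of 71 (56.3%). No test was made over regions, which are not replicates.

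**Figure D2:**
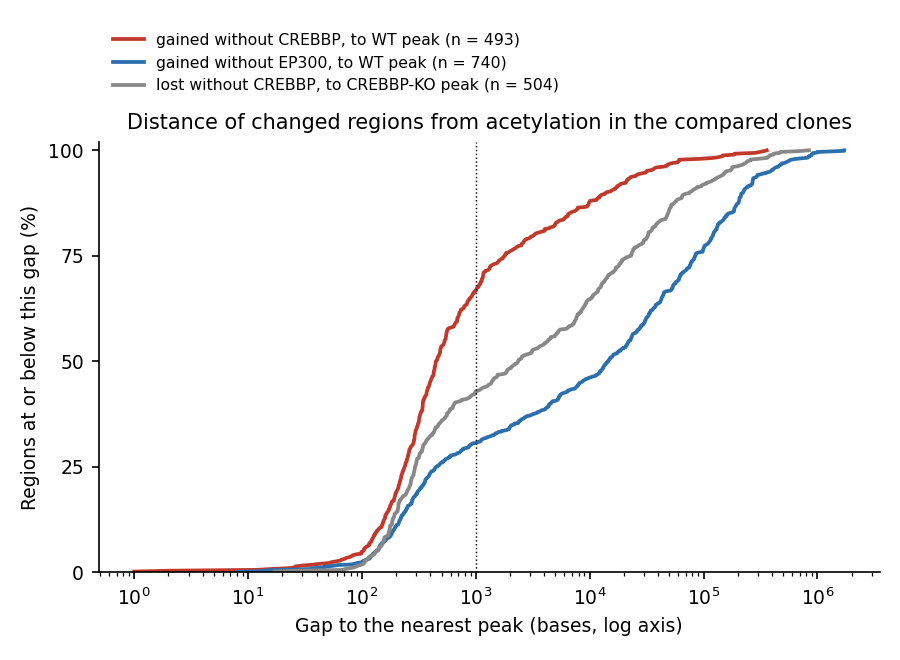
Share of regions (%) whose gap to the nearest peak of the compared clones is at or below the value on the horizontal log axis, with a dotted line at 1000 bases. At that line the curve of regions gained without CREBBP stands at 66.7%, that of regions lost without CREBBP at 42.9% and that of regions gained without EP300 at 30.7%.

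Regions next to the members were longer in CREBBP-KO as well. Within 1000 bases of a member lay 230 regions present in all 6 clones, and 208 members (42.2%) had such a neighbour. Median covered length of these neighbours was 949 bases in N4-8 and 1032.5 in N5-8, 1183 in CBP-E13-5 and 1397.5 in CBP-E20-9, and 847.5 and 856 in P300-E17-17 and P300-E24-5. The medians of both CREBBP-KO clones thus lay above those of both WT clones. Over all 21244 regions present in every clone the medians were 914 and 862 in WT, 783 and 948 in CREBBP-KO, and 754 and 763.5 in EP300-KO.

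Counted per region, both CREBBP-KO clones exceeded both WT clones in 122 of the 230 neighbours (53.0%) and fell below both in 5. After centring on each clone's median the counts were 115 (50%) and 6, beside 3776 of all 21244 regions (17.8%) and 3747 (17.6%). For EP300-KO the direction turned with the centring. As deposited, both clones were above both WT clones in 23 neighbours (10%) and below in 108 (47.0%), where all regions gave 10.0% and 45.5%. After centring they were above in 75 (32.6%) and below in 50 (21.7%), where all regions gave 40.9% and 20.4%. Each pair of a CREBBP-KO and a WT clone went the same way. CBP-E13-5 was above N4-8 in 87.8% of the neighbours (59.6% of all regions) and above N5-8 in 87.4% (60.0%), and CBP-E20-9 was above N4-8 in 80% (45.5%) and above N5-8 in 63.0% (40.4%). For regions next to those gained without EP300, both CREBBP-KO clones were above both WT clones in 22.6% of 155 after centring. In the same 155 regions both EP300-KO clones were above both WT clones in 113 (72.9%). Longer neighbours were thus not particular to the regions gained without CREBBP. Neighbours and members come from the same libraries, so these counts are no independent support for the gain.

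**Figure D3:**
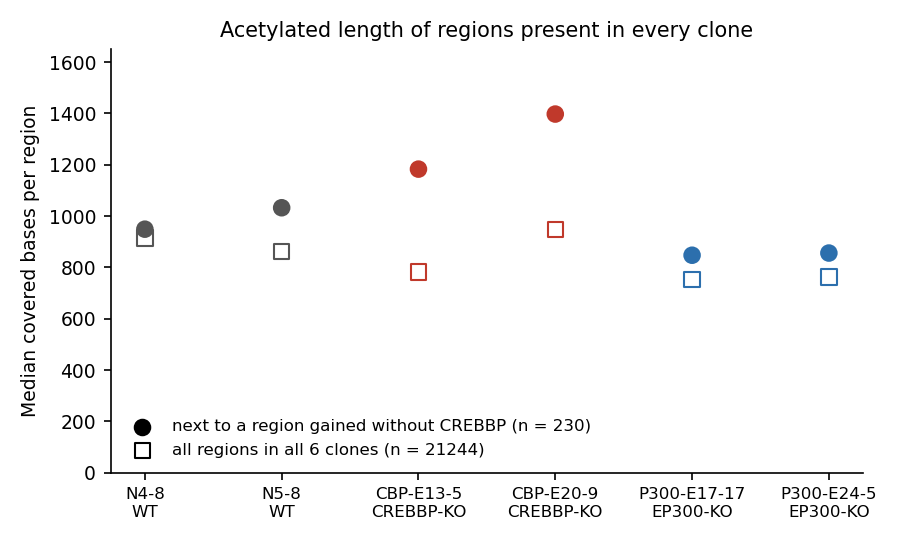
Median covered bases per region in each clone, for the 230 regions next to a member (filled circles) and for all 21244 regions present in every clone (open squares). The filled circles of CBP-E13-5 (1183) and CBP-E20-9 (1397.5) stand above those of both WT clones (949 and 1032.5), while the open squares of the same clones stand at 783 and 948.

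The wider surroundings were compared as well. Within 10 kb of the members, and outside them, the WT clones had 1117 and 1205 kb of covered sequence, the CREBBP-KO clones 1312 and 1549 kb and the EP300-KO clones 898 and 924 kb. As a share of each clone's own total this was 3.39 and 3.96% in WT, 4.78 and 4.54% in CREBBP-KO and 3.54 and 3.62% in EP300-KO. Within 100 kb the shares were 12.88 and 13.96%, 15.51 and 15.01%, and 12.87 and 13.18% in the same order. In each case the CREBBP-KO clones did not overlap the WT clones as a share of the total. These surroundings belong to regions chosen for their peaks in the same libraries, so they are no independent support for the gain. Surroundings of other classes of regions were not compared.

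Members were found inside wide acetylated domains, here meaning neighbouring peaks no more than 12.5 kb apart with a total of 10 kb covered or more. Of the 493 members, 78 (15.8%) lay in a wide domain of both WT clones and 105 (21.3%) in a wide domain of both CREBBP-KO clones. In all, 15 of the 493 members (3.04%) lay in wide domains of both CREBBP-KO clones where neither WT clone had a wide domain around them, as did 183 of all 47344 regions (0.387%). By the rule, the members' own peaks add covered sequence to the CREBBP-KO clones and none to the WT clones. Higher shares of members in CREBBP-KO domains are thus partly built in and are no support for the gain. Over all merged regions the shares in a wide domain of both clones were 10.9% for WT and 9.87% for CREBBP-KO. Of the 3212 regions in a single CREBBP-KO clone, 15.1% lay in a wide domain of both WT clones, close to the members' share, 15.4% in one of both CREBBP-KO clones and 39 (1.21%) in one of CREBBP-KO alone. Of the 740 regions gained without EP300, 4 (0.541%) lay in a WT domain. CBP-E20-9 had the most wide domains of the 6 clones (589) and CBP-E13-5 fewer than either WT clone (404, against 508 and 467).

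Members were spread over every autosome, most on chromosome 2 (59 regions) and chromosome 1 (40). Per 1000 merged regions there were 10.4 members in the genome, 17.5 on chromosome 4, 17.0 on chromosome 13, 16.6 on chromosome 8 and 15.3 on chromosome 2, down to 5.92 on chromosome 19 and 6.23 on chromosome 16. The share of a clone's covered sequence that lay on chromosome 13, members left out, was 2.70 and 2.86% in WT and 3.00 and 2.91% in CREBBP-KO. On chromosome 4 the mean share was higher in CREBBP-KO by 0.07 on the log2 scale. On chromosome 16 it was 3.99 and 3.65% in WT and 3.57 and 3.63% in CREBBP-KO. Chromosomes 4 and 13, with the highest rates of members, thus had a larger share of covered sequence in both CREBBP-KO clones than in either WT clone. The same held for chromosomes 2, 8, 12, 14 and 22, of which chromosome 22 had 8.24 members per 1000. The part of chromosome-wide differences between clones in the gains was not tested.

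**Figure D4:**
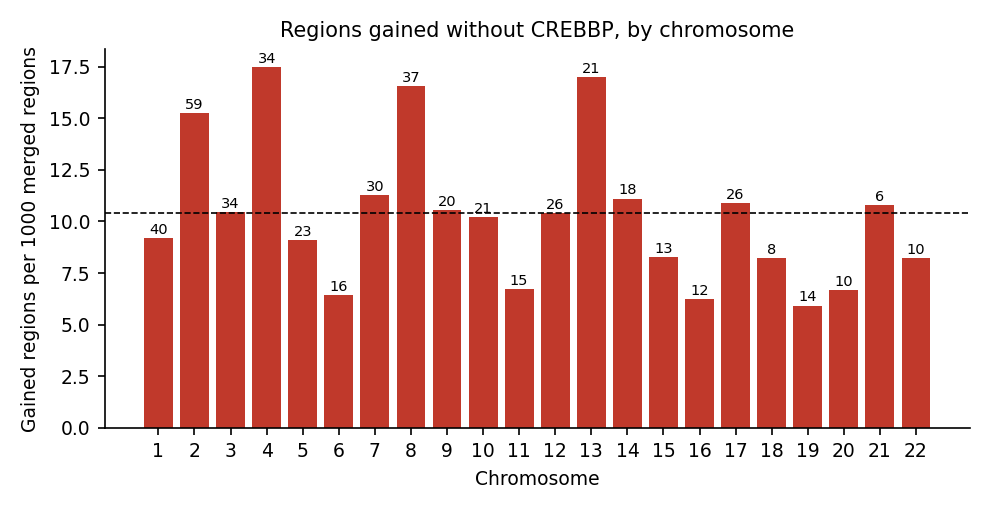
Members per 1000 merged regions on each autosome, with the number of members above each bar and a dashed line at the genome-wide 10.4. Chromosomes 4, 13, 8 and 2 stand highest and chromosomes 19 and 16 lowest.

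Gains occurred mostly singly. Of 434 stretches in which members lay within 10 kb of each other, 386 held a single member, 39 held 2, 7 held 3 and 2 held 4. Of 2282 windows of 1 Mb with any region, 339 held a member, 248 of them just 1 and 54 of them 2. Gene names below rest on hg19 gene positions from general knowledge, since the gene table at hand is of another build (GRCh38). They give place only and do not tie a region to a gene's regulation.

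The window with the most members, 12 of its 71 regions, was chromosome 2 at 89 to 90 Mb, the immunoglobulin kappa locus. Its genes encode the kappa light chain of the B-cell receptor. The longest of the 12 lay at 89213522 to 89214408, with 756 bases in CBP-E13-5, 887 in CBP-E20-9, 217 in P300-E24-5 and none in the other 3 clones. Next by mean covered length came the region at 89215563 to 89216048, with 481 bases in CBP-E13-5, 450 in CBP-E20-9 and 147 in P300-E24-5. Then came 89246610 to 89247376, where the CREBBP-KO clones were uneven, with 767 bases in CBP-E13-5, 132 in CBP-E20-9 and 176 in P300-E24-5. In 5 of the 12 members P300-E24-5 also had a peak, and P300-E17-17 had one in none of them. Without the members the window held 67.6 and 66.6 kb in the WT clones. It held 72.7 and 80.5 kb in the CREBBP-KO clones and 63.8 and 65.2 kb in the EP300-KO clones. The window from 90 to 91 Mb, over the other arm of the locus, held 3 more members. Variable gene segments of this locus are near copies of each other, so reads can be placed in more than 1 position there.

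The next window, chromosome 1 at 198 to 199 Mb, held 6 members, of which 4 lay in PTPRC, the gene of the leukocyte phosphatase CD45. At 198623069 to 198623784 the covered length was 662 bases in CBP-E13-5 and 595 in CBP-E20-9, and at 198639645 to 198640041 it was 322 and 359, with none in the other 4 clones. The next place was shared by windows with 5 members each, chromosome 8 at 8 to 9 Mb and chromosome 14 at 91 to 92 Mb. In the first, 2 members lay in MFHAS1. In the second, 3 lay in CCDC88C, which encodes a Dishevelled-binding protein, among them the region at 91842833 to 91843223 with 390 and 373 bases in CBP-E13-5 and CBP-E20-9.

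Some of the longest members stood in clusters. In CHIC2, 4 members lay within 3.69 kb on chromosome 4, and the nearest WT peak was 14036 bases or more away. They covered 621 and 812 bases at 54880099 to 54880961, 454 and 506 at 54881201 to 54881751, 106 and 405 at 54881864 to 54882268, and 697 and 510 at 54883040 to 54883791, in CBP-E13-5 and CBP-E20-9 in that order. No EP300-KO clone had a peak in any of them. A further 4 lay within 10.2 kb on chromosome 1, led by the region at 93487350 to 93488229 with 804 bases in each CREBBP-KO clone, 6.42 kb from a WT peak. In WNK2, which encodes a kinase, 4 members lay 396 to 2539 bases from the nearest WT peak. The largest of these, and of all members by mean length, spanned 96039621 to 96040981 on chromosome 9 with 1361 bases in CBP-E13-5, 1143 in CBP-E20-9, 155 in P300-E24-5 and none in the other clones.

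**Figure D5:**
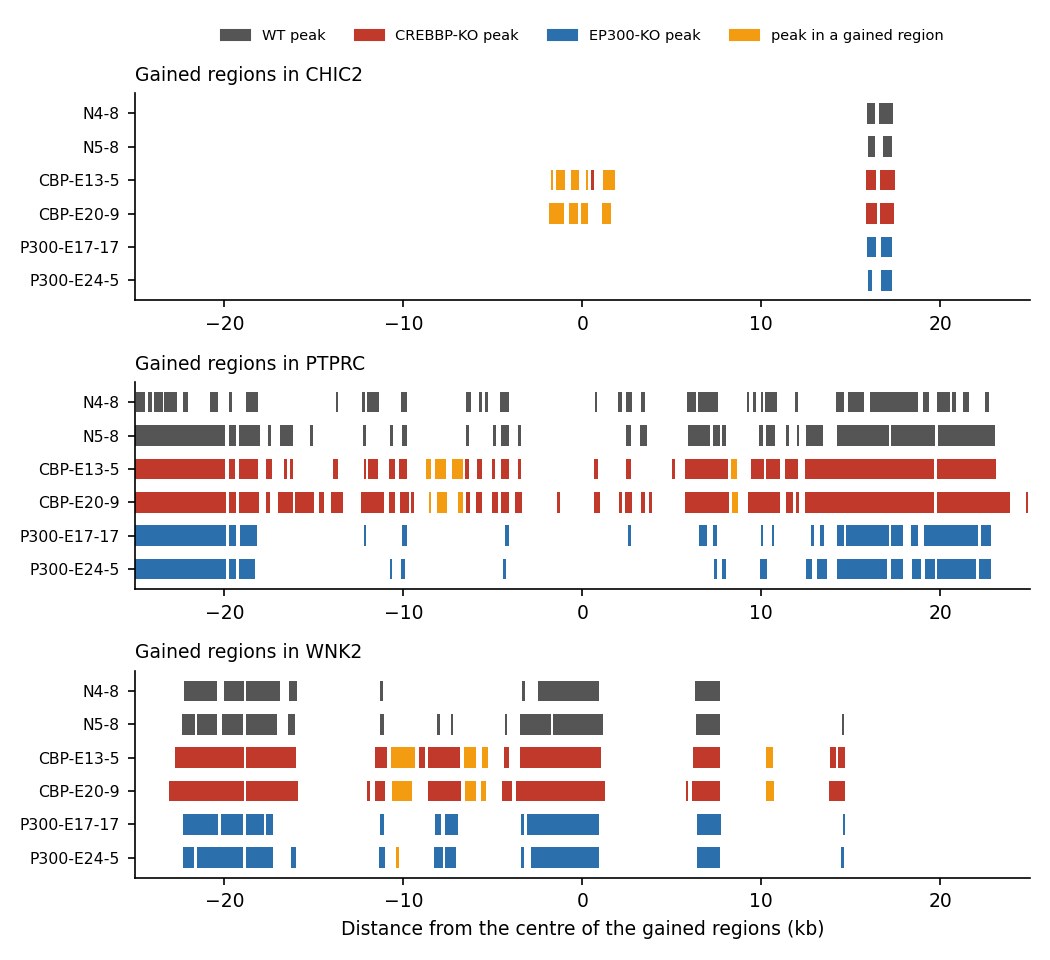
Peaks of each clone within 25 kb of the centre of the gained regions in CHIC2, PTPRC and WNK2, with peaks inside a member in orange. In CHIC2 the members stand 14036 bases or more from any WT peak, whereas in PTPRC and WNK2 WT peaks stand beside them.

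Other members at the top by covered length or score lay in genes of several kinds. In MTSS1, which encodes a scaffold of actin and membrane, CBP-E13-5 covered 1430 bases and CBP-E20-9 1066 of the member at 125653266 to 125654695 on chromosome 8, with no peak in the other 4 clones and authors' scores of 49 and 46. The longest peak of any member, 1827 bases in CBP-E20-9, lay on chromosome 9 at 37139078 to 37140904, where CBP-E13-5 had 333 bases. In this member the CREBBP-KO clones differed by more than 2-fold in covered length.

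The highest mean score fell on chromosome 2 at 100253046 to 100253787 in AFF3, a nuclear factor of lymphoid cells, with authors' scores of 42 and 78 and covered lengths of 376 and 742 bases. It had a second member 1245 bases away, and they stood 146 and 148 kb from the nearest WT peak. In PTPRJ, a receptor-type tyrosine phosphatase, 4 members included the region on chromosome 11 at 48118223 to 48118859, with 317 and 637 bases in CREBBP-KO, 126 in P300-E17-17 and none in the other clones. In PDZRN4 the CREBBP-KO clones covered 567 and 531 bases of a member at 41629307 to 41629873 on chromosome 12, 195 bases from a WT peak. Others of the 10 by score had fewer bases, for example 201 and 276 on chromosome 1 at 120789353 to 120789628 (scores of 48 and 69) and 190 and 220 on chromosome 17 at 2958517 to 2958755. Also among these 10 were regions on chromosome 13 at 59527463 to 59527838, with 376 and 243 bases, and on chromosome 19 at 14063731 to 14064130, with 238 and 318 bases and 306 in P300-E24-5. On chromosome 1 at 206086169 to 206087072, 465 and 904 bases were covered in CREBBP-KO and 167 in P300-E24-5, and at 178571248 to 178572124 it was 608 and 827 in CREBBP-KO and 168 in P300-E17-17.

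The 5 members farthest from any WT peak had 108 to 301 bases in the CREBBP-KO clones. On chromosome 2 at 106810258 to 106810427, 359 kb away, CBP-E13-5 had 120 bases, CBP-E20-9 had 164 and P300-E24-5 had 117. On chromosome 22 at 48840424 to 48840585, 339 kb away, the CREBBP-KO clones had 151 and 108 bases. On chromosome 13 at 42534935 to 42535192, 310 kb away, P300-E24-5 had the longest peak with 258 bases, against 160 and 217. The other two, on chromosome 4 at 9438996 to 9439296 and chromosome 3 at 66541186 to 66541403, were 284 and 188 kb away and had 168 and 301 bases and 209 and 200 bases, with 120 bases in P300-E24-5 in the latter. By each member's mean over the 2 CREBBP-KO clones, members over 10 kb from a WT peak had a median of 225.5 covered bases. Those within 1000 bases of one had 207.5.

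Gained regions were not concentrated at the listed B-cell genes. Within 100 kb of the 78 genes of the fixed lists lay 1583 merged regions, of which 17 were members (10.7 per 1000, against 10.4 in the genome), 15 were lost without CREBBP and 14 gained without EP300. A member stood near 12 of the 78 genes. None lay near the 6 genes of the MHC class II list (0 of 84 regions), which serve the presentation of antigen to T cells. Of these genes, HLA-DPA1 had 0 merged regions within 100 kb and HLA-DMB had 1. The 7 apoptosis and cell cycle genes (0 of 130) and the edited genes CREBBP, EP300 and PPP1R12C (0 of 26) had no member nearby either.

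Among 13 germinal-centre factors, SPIB and BACH2 had members. These members were 4 of the 359 merged regions within 100 kb of the list, or 11.1 per 1000 against 10.4 in the genome. The ETS factor gene SPIB had 1 member 1.85 kb from the gene, on chromosome 19 at 50920018 to 50920341, with 169 bases in CBP-E13-5 and 321 in CBP-E20-9. BACH2, which encodes a repressor of plasma cell fate, had 3 within the gene, of which the largest covered 124 and 305 bases at 90880087 to 90880391 on chromosome 6. No EP300-KO clone had a peak in these 4 members. No member stood near BCL6, IRF8, FOXO1 or CXCR4, which had 7, 11, 66 and 7 merged regions within 100 kb. Of the 16 light zone and activation genes only RELB, an NF-kB subunit, had a member nearby, with 122 and 322 bases on chromosome 19 at 45497856 to 45498177. That member was 1 of the 260 merged regions near this list. The 4 plasma cell genes had 1 member among 27 merged regions, and it lay 99.8 kb from CD38.

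Of the 12 B-lineage factor genes, PAX5, EBF1, RUNX3 and MEF2C had 5 members between them. Near the list lay 406 merged regions, so this was 12.3 per 1000, against 10.4 in the genome. In PAX5, the gene of the factor that maintains B-cell identity, the member at 37000243 to 37000407 on chromosome 9 covered 106 and 165 bases. In EBF1, which acts before PAX5 in B-cell commitment, 182 and 197 bases were covered at 158517399 to 158517603 on chromosome 5. The member near RUNX3, 71.3 kb from the gene, was longer, with 335 bases in CBP-E13-5 and 508 in CBP-E20-9. The 2 at MEF2C, the gene of a factor downstream of B-cell receptor signals, covered 192 and 217 bases at 87956938 to 87957210 and 144 and 136 at 88142471 to 88142683 on chromosome 5. Apart from 1 at MEF2C (5.44 kb), each of these stood within 300 bases of a WT peak.

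Of the 9 genes of the B-cell receptor list, 3 had a member inside the gene. MS4A1, which encodes CD20, had 160 and 440 bases on chromosome 11 at 60227838 to 60228277. The kinase gene SYK had 318 and 339 bases on chromosome 9 at 93573544 to 93573924, and LYN, the gene of a SRC-family kinase, had 134 and 291 on chromosome 8 at 56857065 to 56857368. The gaps to the nearest WT peak were 193, 302 and 30 bases, and no EP300-KO clone had a peak in these members. GPR183, the receptor gene that guides B cells to the outer follicle, was the only 1 of 8 migration genes with members. Of the 103 merged regions near that list, 3 were members (29.1 per 1000), all at GPR183. They lay on chromosome 13 and included 99987698 to 99988429, with 521 and 678 bases and the nearest WT peak 9308 bases away. Another was 99978624 to 99979233, with 429 and 423.

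Covered length was also fitted with limma over all merged regions in which 2 or more clones had 500 bases or more. Only 12 of the 493 members passed that filter, all of them through the CREBBP-KO clones, so their difference follows from the choice. Against WT, limma called 0 of 19256 regions higher in CREBBP-KO (0%) and 1 lower, while 796 were higher at an unadjusted p under 0.05. Without N5-8 it called 202 higher and 30 lower, and with 1 prior spread for all regions, in place of a prior that follows covered length, 21 higher and 36 lower, so the number of calls depends on that clone and on how the spread is modelled. Of the 12 members, limma called 0 against WT (12 at an unadjusted p under 0.05). With 1 prior spread it called 8 of them higher, among 21 of all 19256 regions. Against EP300-KO, as first fitted, limma called 1402 regions higher in CREBBP-KO (7.28%), among them 2 of the 12 members, in MTSS1 and WNK2. That count depended on both EP300-KO clones being kept. It was 7 with a pseudocount of 10 or 1000, 5 without centring and 10 with 1 prior spread, where 1148 of all 19256 regions were called higher. At equal list length it was 1 of the 10 members tested, beside 1009 of 19051 regions. In the same contrast, 1270 of all 19256 regions were called higher with a pseudocount of 10, 1511 with 1000 and 1686 without centring. In EP300-KO against WT, as first fitted, 241 regions were called higher (1.25%) and 0 of the 12 members. At an unadjusted p under 0.05 in this limma fit, 1609 of all 19256 regions were higher and 3180 lower, among them 0 of the 12 members. The rule used all of these contrasts, so nothing is read from the members' counts.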

How the data were processed

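H3K27ac ChIP-seq of 6 SUDHL4 clones was used as 6 peak lists, each of a library against its own input per the file headers, so peaks were called per clone; the other 6 of the 12 samples are inputs. CASAVA 1.8, Bowtie2 2.1.0, SAMtools 0.1.19 and build hg19 are named, per the submitters' processing notes. No source used here names the peak caller. The authors deposited a start, an end and a score per peak, whose meaning is not stated. Depth per library is unknown. Starts were read as counted from 0, which leaves an uncertainty of 1 base.

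Regions were merged and described in Python 3.11.15 (NumPy 2.4.6, SciPy 1.17.1). limma 3.58.1 (R 4.3.3) was fitted on log2(covered bases + 100), after subtracting each clone's median over the regions that all 6 clones have. Regions with 500 bases or more in 2 or more clones entered, with all clones sharing 1 spread and a prior that follows mean covered length. That trend was taken over from an earlier treatment of these files after both outcomes were known. p-values were Benjamini-Hochberg adjusted over all regions tested at a threshold of 0.05. The fit was tested on simulated data, modelled on regions with 500 bases or more in all 6 clones. That test did not cover regions without a peak in a genotype, such as the members. Replicate numbers only name clones.

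The members, gene lists and tests were chosen with earlier results of these data known. Named regions are the 10 members with the highest mean score, the 10 with the largest mean covered length, the 5 farthest from WT peaks, those within 100 kb of a listed gene and the 3 fullest windows of 1 Mb, with ties. Some of these are not reported here. The 100 gene positions came from general knowledge of hg19. Each was on the same chromosome and within 3 Mb in the GRCh38 gene table (GRCh38.p14). PTPRC, PTPRJ, MTSS1, CHIC2, WNK2, AFF3, CCDC88C, MFHAS1, PDZRN4, RPS6KA5 and IGKC, the kappa constant gene, were added after the members were seen. No hg19 genome was used here, so no region's sequence is printed.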

Additional observations from a re-analysis of the deposited data

How the results depend on the processing

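The number of members depends on how presence is counted. It was 493 as reported, 422 with no EP300-KO clone and 587 with any number of them, which is within 1.5 times. It was 778 when a clone had to cover at least 50% of a merged region, 167 when peaks up to 500 bases apart were joined, 866 at equal list length, 214 in the upper 50% of each list and 164 with no WT peak within 1000 bases. A peak cut from a WT list counts as absent, so the numbers at equal length and in the upper 50% need not be new peaks. Leaving out 1 clone gave 589 to 3667 members, with 1204 without N4-8, 983 without N5-8, 3667 without CBP-E13-5 and 1163 without CBP-E20-9. Median covered length was 200 bases as reported, 251 at equal list length and 154 to 229 without 1 clone. The share of members within 1000 bases of a WT peak was 66.7%, 58.4% at equal list length and 58.1 to 73.1% without 1 clone. It was 82.6% within 5 kb and 87.8% within 10 kb. In limma, the regions called in CREBBP-KO against WT numbered 1 as reported, 3 with a pseudocount of 1000, 12 at equal list length (8 higher, 4 lower), 57 with no trend of the spread, an alternative chosen after seeing the data, 0 with only the 4 clones compared, and 0 to 232 without 1 clone, the last without N5-8 (202 higher, 30 lower). Calls in EP300-KO against WT were 1437 as reported, 2279 with a filter of at least 1 base in at least 2 clones, and 724 to 1460 without 1 clone (724 without N4-8, 934 without N5-8 and 846 without P300-E17-17). In CREBBP-KO against EP300-KO they were 1783 and 363 to 1901 without 1 clone (363 without CBP-E13-5, 493 without CBP-E20-9 and 938 without P300-E17-17). A genotype left with 1 clone was assumed to vary like the others. No paired analysis was possible because the labels give the clones no shared replicate numbers. The lack of depth limits all of this, since absence means only that no peak was called.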

Other observations

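Chromosome X was outside the rule. Of its 1395 merged regions, 17 met the same presence pattern (12.2 per 1000) with a median of 239.5 covered bases in CREBBP-KO, and 11 were lost without CREBBP by the mirrored rule.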
